A study of Mus musculus with 4 samples.

Results

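A set of 50 genes of the cell division cycle was followed in peritoneal macrophages of C57BL/6 mice (B6) and 129S6/SvEvTac mice (129S6). Of the 50 genes, 24 act in DNA replication or in the step from G1 to S phase, and 26 act in mitosis. The list was fixed by gene name, with earlier results of these data known. A gene was read from a probe set, a group of array probes summarized to a single value, that the array annotation pairs with 1 gene symbol only, and from the probe set with the highest mean where there were several. By this rule 47 of the 50 genes were measured among 22180 genes in all, 23 of the 24 replication genes and 24 of the 26 mitosis genes. Ccne2, a cyclin of the G1/S step, and Ncapg, a condensin subunit, were read only by probe sets shared with another gene, and Ccnb1, the main mitotic cyclin, was not listed in the annotation used here, so these 3 were left out.

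All animals were wild type, ate regular chow, and received 1 ml of 4% thioglycollate in the peritoneum, an irritant that recruits monocytes, which become macrophages, to that cavity. The cavity was washed 4 days later and the cells were kept on plates overnight, so the values describe attached cells in culture. The 4 arrays carried a B6 female, a B6 male, a 129S6 female and a 129S6 male sample, each a pool of RNA from 3 mice per the labels, while the study's methods give a larger pool. The mice were 3 months old by the study's methods, and the labels do not give the B6 substrain. Each group was therefore 1 array per strain and sex and 2 arrays per strain. In the fit with strain and sex, p-values and SEs rest on how far the strain difference disagreed between females and males. This disagreement was drawn toward a spread shared over all genes. Spread between pools of the same strain and sex, or between mice, was not measured, and all values describe these 4 pools only.

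A cell that divides copies its DNA in S phase and separates the copies in mitosis. Cyclins and their kinases drive both steps, E2F factors switch on the replication genes late in G1, and a second wave of transcription, which runs through the MuvB complex, B-MYB and FOXM1, raises the mitosis genes in G2. Macrophages that arise from blood monocytes are mostly outside the cycle, while macrophages resident in the peritoneal cavity can renew themselves by dividing. In a bulk sample, fewer cells in cycle and less RNA of these genes per cell cannot be told apart.

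Replication and mitosis genes also differed in their promoters, which are shown for the genes whose values are described in most detail. The windows are RefSeq sequences of the GRCm38.p6 build, which is based on the B6 strain, and run 5′ to 3′ over 300 bases, 250 of them before the annotated transcription start. Capitals mark 3 motifs on either strand: the E2F site (TTTGGCGC or TTTCCCGC or TTTCGCGC or TTTGCCGC), the cell cycle genes homology region or CHR (TTTGAA), which is bound by the MuvB complex, and the CCAAT box, which is bound by NF-Y. No match of one motif overlapped a match of another in the windows shown, and 1 such overlap occurred among all member windows, in Mcm7. The first 4 belong to mitosis genes, 3 that read below 129S6 in B6 and Bub1b, which read above.
Mki67, chr7:135716330-135716629, minus strand: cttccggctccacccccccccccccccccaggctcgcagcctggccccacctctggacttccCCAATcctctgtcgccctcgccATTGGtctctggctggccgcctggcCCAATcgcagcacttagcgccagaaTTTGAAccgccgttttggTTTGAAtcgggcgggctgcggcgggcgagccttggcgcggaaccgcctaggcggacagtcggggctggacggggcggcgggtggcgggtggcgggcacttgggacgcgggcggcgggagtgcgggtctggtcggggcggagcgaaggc
Prc1, chr7:80294201-80294500, plus strand: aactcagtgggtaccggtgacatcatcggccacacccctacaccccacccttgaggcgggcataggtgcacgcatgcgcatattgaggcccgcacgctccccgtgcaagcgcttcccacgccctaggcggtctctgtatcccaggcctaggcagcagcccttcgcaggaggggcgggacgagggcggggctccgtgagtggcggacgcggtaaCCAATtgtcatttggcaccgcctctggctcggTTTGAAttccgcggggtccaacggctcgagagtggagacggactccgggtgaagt
Plk1, chr7:122159185-122159484, plus strand: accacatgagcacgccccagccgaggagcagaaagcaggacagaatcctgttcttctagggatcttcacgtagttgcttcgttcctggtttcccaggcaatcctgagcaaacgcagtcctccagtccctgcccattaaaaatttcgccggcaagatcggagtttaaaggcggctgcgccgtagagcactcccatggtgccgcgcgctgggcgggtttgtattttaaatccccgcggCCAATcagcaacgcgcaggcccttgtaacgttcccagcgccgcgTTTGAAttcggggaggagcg
Bub1b, chr2:118597961-118598260, plus strand: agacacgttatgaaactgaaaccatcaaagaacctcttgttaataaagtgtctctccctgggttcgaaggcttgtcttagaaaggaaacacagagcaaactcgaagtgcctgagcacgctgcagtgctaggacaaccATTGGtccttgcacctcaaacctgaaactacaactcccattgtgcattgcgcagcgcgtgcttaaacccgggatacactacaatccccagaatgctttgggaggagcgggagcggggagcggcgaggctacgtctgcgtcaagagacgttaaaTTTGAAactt
The other 3 belong to subunits of the same replicative helicase, of which Mcm3 and Mcm5 read below 129S6 in B6 and Mcm6 read above.
Mcm3, chr1:20820263-20820562, minus strand: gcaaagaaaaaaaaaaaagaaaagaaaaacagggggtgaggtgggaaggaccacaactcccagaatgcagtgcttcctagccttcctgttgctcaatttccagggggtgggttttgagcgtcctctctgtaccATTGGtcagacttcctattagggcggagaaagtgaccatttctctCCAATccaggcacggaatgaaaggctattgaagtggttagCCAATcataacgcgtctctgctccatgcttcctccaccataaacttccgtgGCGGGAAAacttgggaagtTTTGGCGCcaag
Mcm5, chr8:75109259-75109558, plus strand: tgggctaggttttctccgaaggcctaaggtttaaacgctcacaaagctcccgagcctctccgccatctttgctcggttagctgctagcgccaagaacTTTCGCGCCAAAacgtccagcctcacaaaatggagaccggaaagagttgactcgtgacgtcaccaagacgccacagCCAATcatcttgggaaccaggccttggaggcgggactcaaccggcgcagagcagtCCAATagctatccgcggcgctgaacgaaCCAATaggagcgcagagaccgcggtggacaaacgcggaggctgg
Mcm6, chr1:128359656-128359955, minus strand: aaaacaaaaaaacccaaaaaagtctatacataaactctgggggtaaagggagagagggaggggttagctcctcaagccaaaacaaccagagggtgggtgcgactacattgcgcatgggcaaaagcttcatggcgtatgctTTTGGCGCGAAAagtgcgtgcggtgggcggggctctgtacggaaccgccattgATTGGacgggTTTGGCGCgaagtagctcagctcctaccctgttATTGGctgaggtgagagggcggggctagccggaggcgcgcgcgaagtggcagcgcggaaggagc
Each of the 4 mitosis windows held a CHR and a CCAAT box and none held an E2F site, whereas each of the 3 helicase windows held E2F sites and CCAAT boxes and none held a CHR. Windows were at hand for 39 of the 50 genes, 41 windows in all because Mcm7 and Prc1 have a pair of starts each. A CHR stood in 16 of the 21 mitosis windows (76.2%), against 2 of the 20 replication windows (10.0%) and 17.9% of all 32851 promoter windows. An E2F site stood in 2 of the 21 mitosis windows (9.52%), against 8 of the 20 replication windows (40.0%) and 2.26% of all windows. The CCAAT box was common in both, in 18 of 21 mitosis windows (85.7%) and 14 of 20 replication windows (70.0%), against 37.4% of all windows. A match is a run of letters and not a measured binding site.

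The strain comparison, B6 minus 129S6 on the log2 scale, came from a limma fit over all genes with sex as a second term. A gene was called where its p-value, adjusted over all 22180 genes by the Benjamini-Hochberg method, was below 0.05. Mki67 was the only member called. It encodes Ki-67, a protein that coats mitotic chromosomes and marks cells in cycle. No member was called higher in B6. Of all genes, 114 (0.514%) were called lower and 75 (0.338%) higher in B6. The count of members differed between settings. With a prior that follows the expression level, 1256 genes were called in both directions together, among them 7 members lower and 1 higher in B6. Among the 11090 brighter genes alone, which held 40 members, 589 genes were called in both directions together, with 4 members lower and 0 higher. At an unadjusted p below 0.05, the first fit over all 22180 genes had 23 of the 47 members lower in B6 and 2 higher. The shares of all genes were 9.36% lower and 6.99% higher.

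Mki67 had log2 intensities of 7.41 (female) and 6.24 (male) in the B6 pools, against 9.76 (female) and 9.17 (male) in the 129S6 pools. Both B6 arrays lay far below both 129S6 arrays, and within each strain the male array was the lower one. Mki67 fell by 2.64 ± 0.21 (SE) in B6, which is 6.23-fold higher in 129S6 (limma adjusted p = 0.0420). The difference was -2.35 in females and -2.93 in males. With all 4 arrays and no sex term it stayed below the threshold (limma adjusted p = 0.0499), and with p-values adjusted over all 41345 probe sets it did not (limma adjusted p = 0.104). A fit of 3 arrays cannot hold both strain and sex, so wherever an array was left out the sex term was dropped too, the gene's own spread came from the strain with 2 arrays, and the lone array was assumed to vary like them. In such fits Mki67 missed the threshold without the 129S6 female array (-2.34, limma adjusted p = 0.162) and without the 129S6 male array (-2.93, limma adjusted p = 0.0643).

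**Figure D1:**
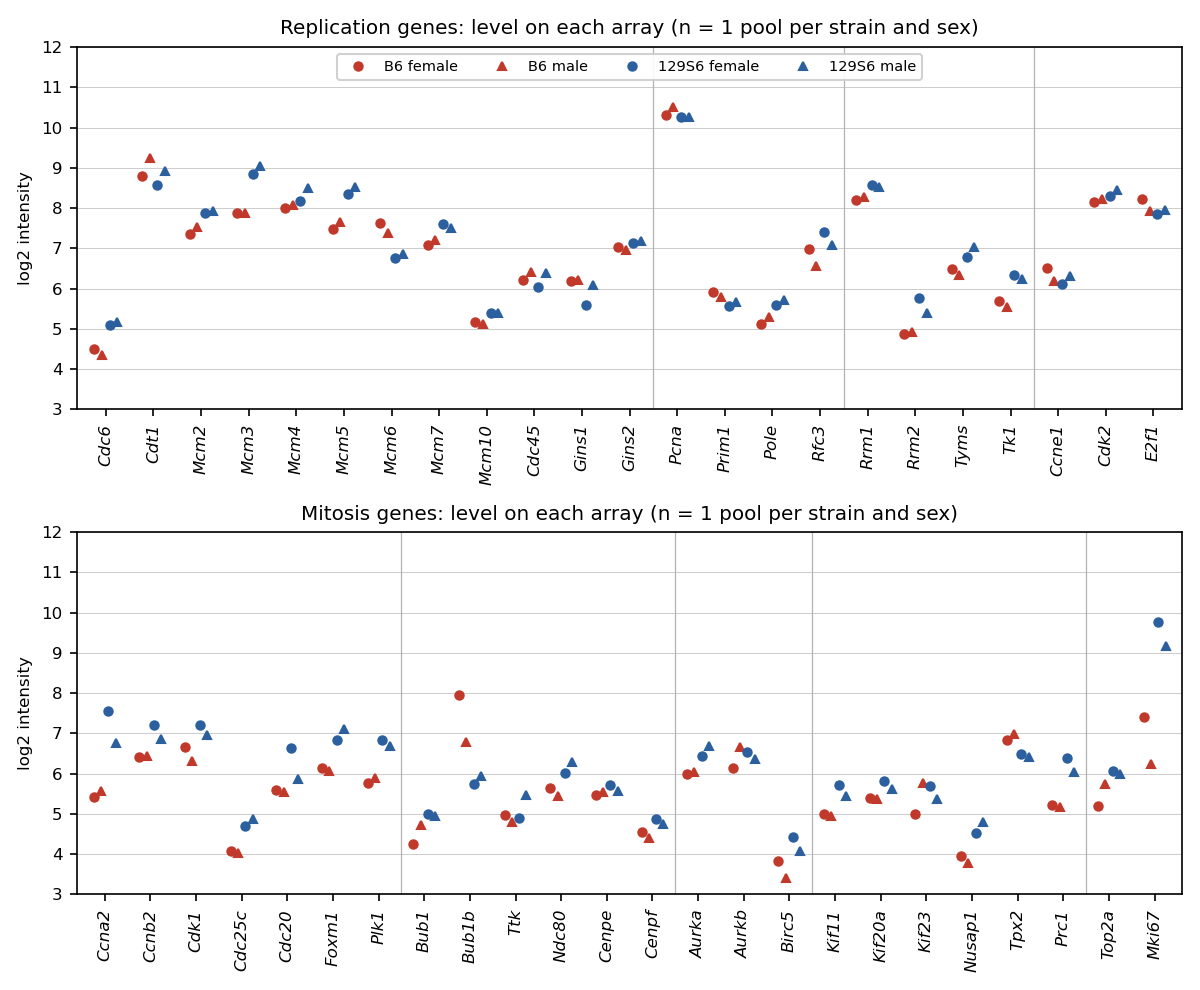
Log2 intensity (y axis) of each measured member on each of the 4 arrays, replication genes above and mitosis genes below, with B6 in red and 129S6 in blue, females as circles and males as triangles, and lines between groups of related function. Mki67 at the right of the lower panel stands apart, with 7.41 and 6.24 in B6 and 9.76 and 9.17 in 129S6, and Bub1b and Mcm6 are reversed to their neighbours.

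The mitosis genes as a group lay further below 129S6 than the replication genes. Their median difference was -0.60 over 24 genes, and that of the replication genes was -0.29 over 23 genes, beside -0.02 over all genes. The median of the mitosis genes was -0.61 within females and -0.58 within males, and that of the replication genes was -0.24 and -0.27. Without Mki67 the mitosis median was still -0.60. The difference between these medians, -0.31, is a description of these genes and was not tested.

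The order was the same in counts of genes whose strains did not overlap. Both B6 arrays read below both 129S6 arrays for 19 of 24 mitosis genes (79.2%) and 15 of 23 replication genes (65.2%), against 26.1% of all genes. Both B6 arrays read above both 129S6 arrays for 2 mitosis genes, Bub1b and Tpx2, and 4 replication genes, Mcm6, Gins1, Pcna and Prim1, against 22.8% of all genes. A gap of at least 1.5-fold in both sexes with B6 lower was seen for 7 mitosis and 4 replication genes, where the share of all genes was 4.45%, and with B6 higher for Bub1b alone, where it was 3.02%. The sign of the difference was shared by females and males for 42 of the 47 members (89.4%), against 63.4% of all genes.

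**Figure D2:**
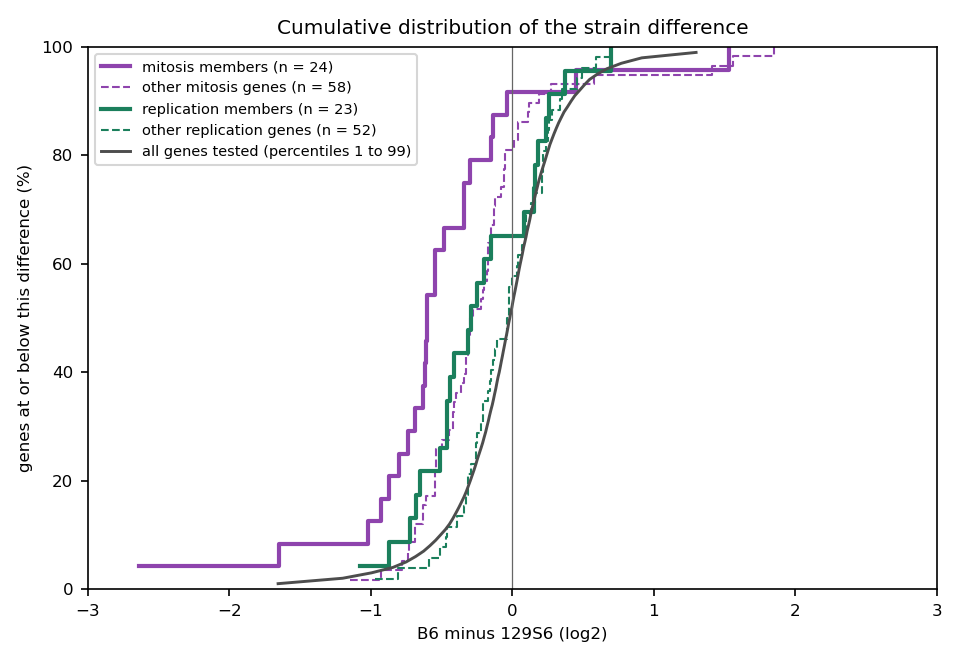
Share of genes in percent (y axis) at or below a given B6 minus 129S6 log2 difference (x axis) for the mitosis members, the other mitosis genes, the replication members, the other replication genes and all genes tested. The curve of the mitosis members lies furthest left for most of its length (median -0.60), the replication members (-0.29) and other mitosis genes (-0.29) lie between, and the other replication genes (-0.03) run close to all genes (-0.02).

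Markers of resident macrophages and of fibroblasts had differences in the same direction. The 11 markers of resident large peritoneal macrophages had a median difference of -2.37, 4 of them called lower in B6, with summed intensities of 4050 and 4340 in the B6 female and male arrays and 16800 and 11800 in the 129S6 female and male arrays. The 8 fibroblast markers had a median of -2.29, 3 of them called lower, with sums of 504 and 801 in the B6 arrays and 3700 and 3350 in the 129S6 arrays. The called fibroblast genes were Dcn (-2.67), Pdgfra (-3.01) and Sparc (-2.61). A gauge of probe background was the highest reading of 3 Y-linked genes in the female arrays, 4.71. Above it on all 4 arrays were 10 of the 11 resident and 7 of the 8 fibroblast markers, and all 11 general macrophage markers, which the labelled cell type should have (median difference -0.45). Of the general macrophage markers, Marco (-2.60) was called lower in B6 and none higher. At an unadjusted p below 0.05, 5 of these 11 were lower in B6 and 2 higher, Mertk (0.78) and Fcgr1 (1.72). The shares of all genes were 9.36% lower and 6.99% higher. Other marker lists had smaller medians, some toward 129S6 and some toward B6. Monocyte-derived macrophage markers had a median of -0.01 over 9 genes, with Retnla (3.30) and Mrc1 (2.80) called higher and Vcan (-2.36) called lower in B6, and the eosinophil list had 0.30 over 5 genes, with Siglecf (1.88) called higher. The medians were 0.28 over 6 T and NK cell genes, 0.22 over 6 mast cell genes and -0.17 over 9 neutrophil genes. They were -0.50 over 6 B cell genes, -0.15 over 8 mesothelial genes and -0.06 over 4 dendritic cell genes. None of these genes was called. At an unadjusted p below 0.05, 2 neutrophil, 3 B cell and 1 mesothelial gene were lower in B6. The mast cell list had 1 higher, and the dendritic cell list had 1 in each direction. The shares of all genes were 9.36% lower and 6.99% higher. Above the gauge on all arrays were none of the T and NK cell genes, 1 mast cell gene (Cpa3, 1.11), 1 neutrophil gene (S100a8, -1.40), 1 B cell gene (Cd79b, -0.16) and 1 eosinophil gene. The part of these cells in the difference of the cell cycle genes was not tested.

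Among the mitosis genes, those that drive entry into and exit from mitosis all pointed the same way. All 7 measured genes read lower in both B6 arrays than in both 129S6 arrays, against 26.1% of all genes. Their differences lay between -1.65 and -0.60 (median -0.74). All 7 had an unadjusted p below 0.05, against 9.36% of all genes with B6 lower, and none was called over all genes. Ccna2, the cyclin of S and G2 phase, had 5.42 and 5.58 in the B6 female and male arrays, against 7.55 and 6.76 in the 129S6 female and male arrays. The 129S6 female was the highest array, so the gap was wider in females (-2.13) than in males (-1.18). Over both sexes the difference was -1.65 ± 0.28 (SE, limma adjusted p = 0.115), and -2.05 in the 3-array fit that sets both B6 arrays against the 129S6 female alone, with no sex term (limma adjusted p = 0.0291).

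Plk1, the polo-like kinase that acts at several steps of mitosis, had 5.78 and 5.90 in the B6 female and male arrays, against 6.84 and 6.69 in the 129S6 female and male arrays (difference -0.93 ± 0.17, limma adjusted p = 0.127). Foxm1, a transcription factor of the mitosis genes, had 6.14 and 6.06 in B6, against 6.84 and 7.10 in 129S6 (-0.87 ± 0.18, limma adjusted p = 0.144). For both genes the arrays of a strain lay closer to each other than to either array of the other strain. The remaining 4 were Cdc25c (-0.74), the phosphatase that activates Cdk1; Cdc20 (-0.69), the activator of the anaphase-promoting complex; Ccnb2 (-0.62), a B-type cyclin; and Cdk1 (-0.60), the mitotic kinase itself. Cdc20 was uneven between the sexes, with -1.05 in females and -0.33 in males. Cdc25c read 4.09 and 4.03 in B6, below the background gauge of 4.71.

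The spindle checkpoint and kinetochore genes held the exception. Bub1b, which encodes the checkpoint kinase-like protein BubR1, had 7.95 and 6.78 in the B6 female and male arrays, against 5.74 and 5.94 in the 129S6 female and male arrays. Both B6 arrays were above both 129S6 arrays, and the B6 female stood highest by more than 1 log2 unit. The difference was 1.53 ± 0.37 (SE, limma adjusted p = 0.182), or 2.21 in females and 0.84 in males, and 2.11 in the 3-array fit that sets the B6 female alone, the highest array, against both 129S6 arrays, with no sex term (limma adjusted p = 0.0238). Bub1, the partner kinase of the same checkpoint, had a difference of -0.48. Ndc80 (-0.60), the microtubule-binding kinetochore protein, was the only one of the other 5 with an unadjusted p below 0.05. Cenpf (-0.34), Ttk (-0.30) and Cenpe (-0.14), a kinetochore protein, a checkpoint kinase and a kinetochore motor, lay nearer 0, and Cenpf read below the background gauge in both B6 arrays.

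The spindle and midzone genes ranged from -1.02 to 0.45. Prc1, which bundles microtubules in the spindle midzone, had 5.21 and 5.17 in the B6 female and male arrays, against 6.38 and 6.03 in the 129S6 female and male arrays (-1.02 ± 0.17, limma adjusted p = 0.114). The B6 arrays were nearly equal and both 129S6 arrays lay above them, about 2-fold on average (2.03). Nusap1 (-0.80), whose B6 readings were below the background gauge, and the motor Kif11 (-0.61) read lower in both B6 arrays, as did Kif20a (-0.34), a midzone motor. Tpx2, which activates Aurora A on the spindle, went the other way with 6.83 and 6.99 in B6, against 6.50 and 6.42 in 129S6 (0.45 ± 0.17, limma adjusted p = 0.311). Its partner kinase Aurka had -0.55, so the pair did not share a sign.

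Aurkb, the kinase of the chromosomal passenger complex, had a difference of -0.04, and Birc5, which encodes survivin of the same complex, had -0.63. Birc5 did not exceed 4.71 on any array. Top2a, the topoisomerase that untangles DNA, had 5.20 and 5.75 in the B6 female and male arrays, against 6.07 and 5.99 in the 129S6 female and male arrays (-0.55 ± 0.22, limma adjusted p = 0.331). Top2a and Mki67 are both widely used markers of cycling cells, and the size of their differences was far apart.

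**Figure D3:**
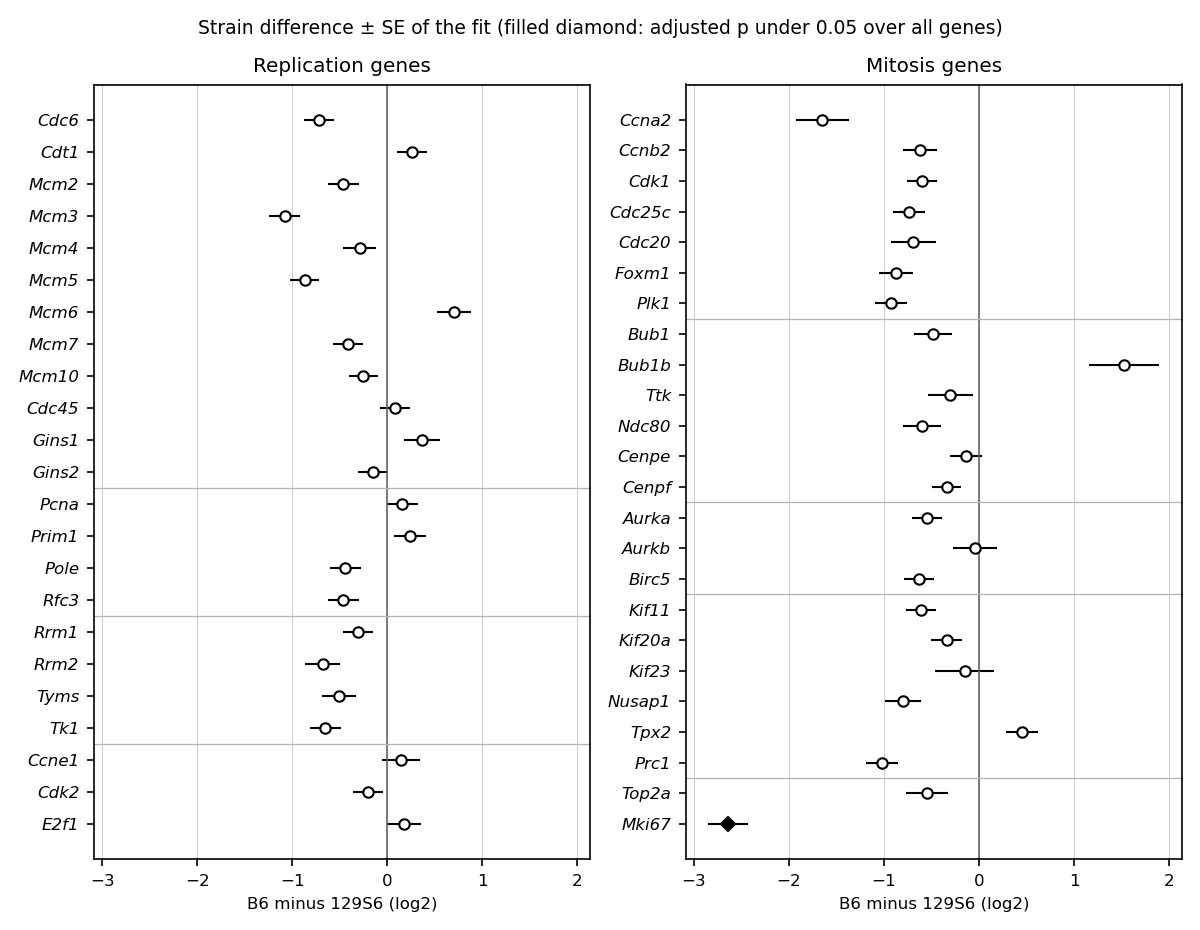
B6 minus 129S6 log2 difference (x axis) of each measured member with bars of ± 1 SE of the limma fit, replication genes at the left and mitosis genes at the right, with lines between groups of related function. Only Mki67 (-2.64) is drawn as a filled diamond for an adjusted p below 0.05 over all genes, and Bub1b (1.53) and Mcm6 (0.70) are the members furthest to the right.

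The replication genes pointed both ways. The 12 genes that license origins and form the replicative helicase ranged from -1.08 to 0.70 (median -0.27). At an unadjusted p below 0.05, 4 of them pointed toward 129S6 and 1 toward B6. The shares of all genes were 9.36% and 6.99%. Mcm3 had 7.88 and 7.87 in the B6 female and male arrays, against 8.85 and 9.05 in the 129S6 female and male arrays. The B6 arrays were almost identical and both 129S6 arrays were about 1 log2 unit above them. The difference was -1.08 ± 0.16 (SE, limma adjusted p = 0.0957), the largest among the replication genes.

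Mcm5 had 7.48 and 7.64 in the B6 female and male arrays, against 8.34 and 8.51 in the 129S6 female and male arrays (-0.87 ± 0.15, limma adjusted p = 0.122), nearly the same in females (-0.87) as in males (-0.86). Mcm6 had 7.62 and 7.38 in the B6 arrays, against 6.75 and 6.85 in the 129S6 arrays, with both B6 arrays higher. Its difference was 0.70 ± 0.18 (SE, limma adjusted p = 0.193). The MCM complex is a ring of 6 different subunits, Mcm2 to Mcm7, and 5 of them had negative differences, with Mcm2 at -0.46, Mcm7 at -0.41 and Mcm4 at -0.29 beside Mcm3 and Mcm5. Mcm6 was the single subunit with a positive one. Its promoter window above held 3 E2F sites and 2 CCAAT boxes, against 2 and 3 in each of the windows of Mcm3 and Mcm5. The windows are of the B6-based build only, and the part of the promoters in these differences was not tested.

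The loaders of this ring were split. Cdc6, which brings the ring to the origin, had 4.49 and 4.36 in the B6 female and male arrays, against 5.10 and 5.17 in the 129S6 female and male arrays (-0.72 ± 0.16, limma adjusted p = 0.167), and both B6 arrays lay below the background gauge of 4.71. Cdt1, its partner in loading, had 8.79 and 9.23 in B6, against 8.57 and 8.93 in 129S6, and the strains overlapped (0.26 ± 0.16, limma adjusted p = 0.491). The factors that turn the ring into a working helicase lay on both sides of 0, with Gins1 at 0.37, Cdc45 at 0.08, Gins2 at -0.15 and Mcm10 at -0.25.

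At the fork, Pcna, the sliding clamp, had 10.32 and 10.52 in the B6 female and male arrays, against 10.27 and 10.25 in the 129S6 female and male arrays, a gap no wider than that between the B6 arrays (0.16 ± 0.16, limma adjusted p = 0.676). Prim1, the primase, had 0.24, while Pole, the catalytic subunit of DNA polymerase epsilon, had -0.44 and Rfc3, a subunit of the clamp loader, had -0.46. A second Pole probe set, not used here, went the other way. It read 4.31 and 4.52 in the B6 female and male arrays, against 4.17 and 4.05 in 129S6. All 4 of these readings lay below the background gauge of 4.71. The genes for supply of nucleotides were the only replication group in which all 4 read lower in both B6 arrays, against 26.1% of all genes. Rrm2, the regulated subunit of ribonucleotide reductase, had 4.88 and 4.91 in B6, against 5.76 and 5.38 in 129S6 (-0.68 ± 0.18, limma adjusted p = 0.214). A second Rrm2 probe set, not used here, read 2.51 and 2.74 in B6, against 2.52 and 2.65 in 129S6, all below the gauge. With the mean of both probe sets the Rrm2 difference was -0.32 (limma adjusted p = 0.434). Tk1, the S phase thymidine kinase, had 5.70 and 5.55 in B6, against 6.33 and 6.23 in 129S6 (-0.65 ± 0.16, limma adjusted p = 0.178). Tyms, the thymidylate synthase, had -0.51, and Rrm1, the other reductase subunit, had -0.31. The G1/S regulators E2f1 (0.18), Ccne1 (0.15) and Cdk2 (-0.20) lay within 0.20 log2 units of 0, and none had an unadjusted p below 0.05.

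**Figure D4:**
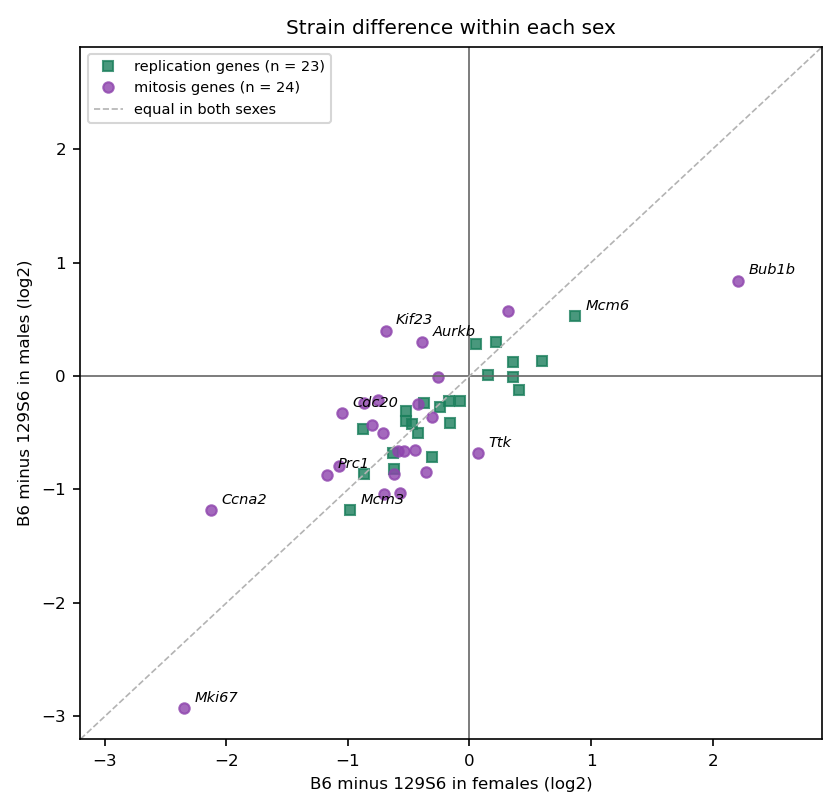
B6 minus 129S6 log2 difference within females (x axis) and within males (y axis) for the replication members (squares) and mitosis members (circles), with a dashed line where both sexes are equal. Mki67 is at the lower left (-2.35 and -2.93), Ccna2 was wider in females (-2.13 and -1.18), and Bub1b is at the right (2.21 and 0.84).

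No member was called for sex in the same limma fit, where 3 of all genes were (0.0135%), and the smallest limma adjusted p among members was 0.860. The single member with an unadjusted p below 0.05 for sex was Mki67, with a male minus female difference of -0.88. The median male minus female difference was 0.01 over the 47 members.

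Genes outside the 50 were read from broader lists to see whether that order held there. Of 52 other measured replication genes, none was called, 3 had an unadjusted p below 0.05 in each direction, no larger a share than among all genes (9.36% lower and 6.99% higher), and the median difference was -0.03. Of 58 other measured mitosis genes, the median was -0.29. At an unadjusted p below 0.05, 13 of them pointed toward 129S6 and 3 toward B6, against the same shares of all genes. Over all genes 1 of the 58 was called higher in B6, where the share of all genes was 0.338%. That gene was Pttg1, which encodes securin, the guard of sister chromatid cohesion, with 6.66 and 6.34 in the B6 female and male arrays, against 4.63 and 4.67 in the 129S6 female and male arrays. Both B6 arrays were well above both 129S6 arrays, and Pttg1 rose by 1.85 ± 0.18 in B6 (SE, limma adjusted p = 0.0483). Its 129S6 readings did not exceed the background gauge of 4.71, so the size of the difference is set against background.

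Pttg1 was followed by H2az1 (1.56, limma adjusted p = 0.116), a histone variant, and Ncapg2 (1.41, limma adjusted p = 0.0585), a condensin subunit, both with the higher readings in B6. H2az1 read 4.07 and 4.38 in the 129S6 female and male arrays, below the gauge as well. In fits of 3 arrays with no sex term, a lone B6 female set against both 129S6 arrays gave 1.85 for H2az1 (limma adjusted p = 0.0368), a lone B6 male gave 1.46 for Ncapg2 (limma adjusted p = 0.0372), and Pttg1 missed the threshold without the 129S6 female array (1.83, limma adjusted p = 0.0668). In the replication list the largest differences were those of Uhrf1 (-0.97), which keeps DNA methylation through replication, Orc1 (-0.81), the origin recognition subunit, which did not exceed the gauge on any array, and Rfc2 (0.70), a clamp loader subunit whose sign was opposite to that of Rfc3. None of these 3 was called.

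Genes listed as brakes on the cycle differed in both directions. The list was chosen by hand and also held Lin9 and Lin54, subunits of the MuvB complex named above. Of the 18 measured genes of this list, 1 was called higher in B6, where the share of all genes was 0.338%. The called gene was Cdkn1c, which encodes the CDK inhibitor p57. It had 7.83 and 8.80 in the B6 female and male arrays, against 4.88 and 5.61 in the 129S6 female and male arrays. Both B6 arrays read above both 129S6 arrays, as for 22.8% of all genes, and in each strain the male array was the higher one. Cdkn1c rose by 3.06 ± 0.16 in B6 (SE, limma adjusted p = 0.0336), and missed the threshold in the 3-array fit without the 129S6 female array and with no sex term (2.70, limma adjusted p = 0.0881).

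Cdkn1a, the gene of p21, had 0.75 ± 0.15 (SE, limma adjusted p = 0.147), with 11.17 and 11.20 in the B6 female and male arrays, against 10.41 and 10.45 in the 129S6 female and male arrays. Of the INK4 inhibitors of CDK4 and CDK6, Cdkn2b and Cdkn2a had the opposite sign, and Cdkn2c (-0.03) and Cdkn2d (-0.23) lay near 0. Cdkn2b, the gene of p15, had 5.38 and 6.10 in the B6 female and male arrays, against 7.42 and 6.78 in the 129S6 female and male arrays (-1.36 ± 0.37, limma adjusted p = 0.213). Cdkn2a, the gene of p16 and p19ARF, had 4.74 and 4.79 in B6, against 6.07 and 5.49 in 129S6 (-1.02 ± 0.22, limma adjusted p = 0.155). Both B6 arrays read below both 129S6 arrays for Cdkn2b and Cdkn2a, as for 26.1% of all genes, and neither passed over all genes. Over the 18 brakes the median difference was 0.09, so the list had no common direction.

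The D-type cyclins, which carry growth signals to CDK4 and CDK6 in G1, read lower in B6 for all 3 members. Ccnd1 had 5.80 and 6.35 in the B6 female and male arrays, against 6.98 and 7.19 in the 129S6 female and male arrays (-1.01 ± 0.18, limma adjusted p = 0.119). Ccnd2 had 5.57 and 4.52 in B6, against 6.13 and 6.17 in 129S6 (-1.10 ± 0.31, limma adjusted p = 0.224). Ccnd3 had 7.55 and 7.56 in B6, against 8.73 and 8.38 in 129S6 (-1.0 ± 0.18, limma adjusted p = 0.122). No B6 array reached a 129S6 array for any of these cyclins, and 26.1% of all genes had both B6 arrays below both 129S6 arrays. None of the 3 was called with all 4 arrays. The B6 male array read Ccnd2 lowest and below the background gauge. Set alone against both 129S6 arrays with no sex term, it gave -1.63 for Ccnd2. Their kinases had smaller differences, Cdk4 -0.11 and Cdk6 -0.30, and Myc, a driver of growth, had 0.13. Over the 11 genes listed under G1 entry, which also held Csf1r and Irf8, the median was -0.30.

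**Figure D5:**
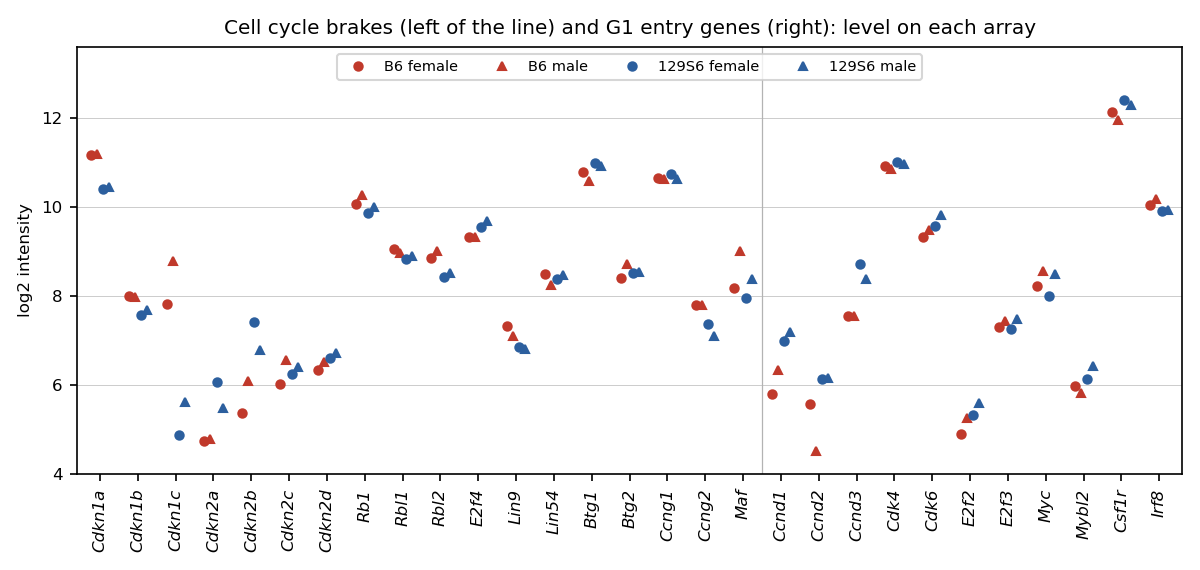
Log2 intensity (y axis) of 18 cell cycle brakes and 11 G1 entry genes on each array, with B6 in red and 129S6 in blue, females as circles and males as triangles. Cdkn1c is the widest gap, with 7.83 and 8.80 in B6 and 4.88 and 5.61 in 129S6, and Ccnd1, Ccnd2 and Ccnd3 lie lower in B6.

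Genes with and without the promoter motifs covered overlapping ranges of difference. The 13 measured mitosis genes whose window held both a CHR and a CCAAT box had a median difference of -0.60, with a range from -2.64 to 1.53, and the 5 whose window lacked at least 1 of them also had -0.60. The 8 measured replication genes with an E2F site had a median of -0.44, from -1.08 to 0.70, and the 11 without had -0.25. Mki67 and Bub1b, the ends of the range of all members, both stood among the genes with CHR and CCAAT. These medians are descriptions with no test.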

How the data were processed

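Peritoneal macrophage RNA from 4 pools, 1 per strain and sex, had been hybridized to Affymetrix mouse whole-transcript arrays. Log2 intensities per probe set were deposited, made by the authors with Affymetrix Expression Console; its version, summarization and background correction are not given in the sources used here. Array medians lay between 4.845 and 4.874, arrays correlated across genes with r from 0.969 to 0.989, and no further scaling was applied. Of 41345 probe sets, 23521 carried 1 symbol, 1820 several, and 16004 were not listed in the annotation; 22180 genes remained.

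Strain (B6 minus 129S6) and sex (male minus female) were additive terms of a limma 3.58.1 fit in R 4.3.3, with 1 residual degree of freedom and a prior of 3.18, and p-values were adjusted by the Benjamini-Hochberg method. The fit was tested on simulated data. The design leaves no degree of freedom to test whether the strain difference depends on sex. The number of arrays limits the precision. Values in the report are log2 intensities, or log2 differences ± SE of the fit; sums of markers are on the linear scale.

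The text names every called member, among replication and among mitosis genes the 6 with the largest difference and any at least 1.5-fold toward B6, and gives the rest by group. The members and lists were chosen with earlier results of these data known. Alternatives were no sex term, a prior following the level, the brighter genes, the mean of a gene's probe sets, all probe sets, quantile normalization, leaving out each array, and each sex alone. Motifs were searched in promoter windows from RefSeq.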

Additional observations from a re-analysis of the deposited data

Results flagged for a closer look

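Of the 47 measured members, 5 had a B6 minus 129S6 difference of opposite sign in females and in males, and for none of them was the gap at least 1.5-fold in both sexes. With 1 array per strain and sex, whether the sexes differ was not tested. Kif23, a motor of the spindle midzone, had -0.69 in females and 0.40 in males, with 5.0 (female) and 5.76 (male) in the B6 pools, against 5.69 (female) and 5.36 (male) in the 129S6 pools. Aurkb, the kinase of the chromosomal passenger complex, had -0.39 in females and 0.30 in males. Ttk, the checkpoint kinase, had 0.07 in females and -0.68 in males, where the 129S6 male array was the highest of the 4 at 5.48. Among the replication genes, Ccne1 had 0.41 in females and -0.12 in males, and E2f1 had 0.36 in females and -0.01 in males.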

How the results depend on the processing

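The median difference of the mitosis genes stayed between -0.63 and -0.47, and that of the replication genes between -0.29 and -0.24, under all alternatives run, so both kept their sign. The replication median was -0.25 with the mean of probe sets and -0.24 within females, and ranged from -0.28 to -0.25 when arrays were left out; the mitosis median was -0.55 after quantile normalization and -0.58 within males, and ranged from -0.63 to -0.47 when arrays were left out. The count of genes called, 189 in the fit with all arrays, was 431 with no sex term, 1256 with a prior that follows the level, 589 among the brighter genes, 81 after quantile normalization and 0 over all probe sets (smallest limma adjusted p 0.0982, with 5707 probe sets at an unadjusted p below 0.05), and 84 to 564 when arrays were left out. Members called lower in B6 numbered 2 with no sex term (Mcm3 and Mki67), 7 with the prior that follows the level (Mcm3, Mcm5, Ccna2, Foxm1, Plk1, Prc1 and Mki67), 4 among the brighter genes (Mcm3, Mcm5, Prc1 and Mki67), 0 over all probe sets, and 0 to 1 when arrays were left out. Members called higher numbered 1 with that prior (Bub1b), and 0 to 1 when arrays were left out. The brighter genes and all probe sets change how many features the adjustment covers; for the other settings the cause was not tested. Single genes were followed under the alternatives for 12 members and 12 genes of other lists, those called or with the largest differences. None of these genes changed its sign under any alternative that included it. Kif23, Aurkb, Ttk, Ccne1 and E2f1, flagged above, were not among them and had opposite signs in females and males. Over all probe sets Cdkn1c (limma adjusted p = 0.0982) and Pttg1 (0.116) also missed the threshold, as did Pttg1 after quantile normalization (0.0547). The sex term is the block that pairs the female and the male arrays of the strains, and the fit with no sex term is the one without this pairing. Fits that left out an array had no sex term and 1 array in a strain, so 2 choices changed together there.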

Other observations

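Histone genes were read after the values had been seen, as all measured genes with a symbol of the clustered histone families. Many genes of these families are transcribed in S phase to package new DNA, but a choice by symbol can include others. Their 25 genes had a median B6 minus 129S6 difference of -0.14, and none was called by limma over all genes, with 5 at an unadjusted p below 0.05 toward 129S6 and 1 toward B6 (9.36% and 6.99% of all genes). The strains did not overlap for 11 of them, with B6 lower in 9 and higher in 2, where the shares of all genes were 26.1% and 22.8%. H2bc21 had 7.04 and 7.20 in the B6 female and male arrays, against 5.43 and 5.93 in the 129S6 female and male arrays (1.44 ± 0.18 SE, limma adjusted p = 0.0654). H2ac21 had 6.64 and 6.01 in B6, against 7.18 and 7.36 in 129S6 (-0.95 ± 0.25 SE, limma adjusted p = 0.208). These genes are near-identical copies, so a probe set may read more than 1 of them. Several of the 25, among them H1f1, H2bc1 and H2ac12, did not exceed the background gauge of 4.71 on any array.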
